A study of Mus musculus with 48 samples.

Results

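Expression of 10 genes of nitrogen disposal and amino acid breakdown was examined in 6 mouse tissues 9 days after Roux-en-Y gastric bypass (RYGB) or sham surgery. The genes were Cps1, Otc, Ass1, Asl and Arg1, whose products carry out the urea cycle, and Tat, Sds, Hal, Got1 and Gls2, which feed amino acid nitrogen towards it. They were chosen by symbol, 1 row for each Ensembl gene, and made up 10 of the 15541 distinct genes listed in the 6 tables. The liver table listed 10 of them, duodenum 4, jejunum 5, ileum 5, subcutaneous white adipose tissue (WAT) 3 and gastrocnemius muscle 2.

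The animals were male C57Bl6 mice with diet-induced obesity, raised on a high fat diet. RYGB joins a small gastric pouch to the jejunum, so that food bypasses most of the stomach and the duodenum, whereas sham mice kept their anatomy. Both groups were given a liquid elemental diet after surgery and were killed at 10am after an overnight fast, so neither group was untouched by surgery, diet change or fasting. There were 48 libraries, with 4 RYGB and 4 sham for liver, for WAT and for muscle, 3 RYGB and 4 sham for duodenal and for jejunal villi, and 5 RYGB and 5 sham for ileal villi. The labels give neither the age of the mice nor whether sham mice were weight-matched, and they do not say which libraries of different tissues came from the same mouse.

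The urea cycle turns ammonia into urea and is complete in hepatocytes around the portal vein. Cps1 and Otc act in mitochondria and make citrulline, Ass1 and Asl convert citrulline through argininosuccinate to arginine, and Arg1 splits arginine into urea and ornithine. Enterocytes of the small intestine carry Cps1 and Otc as well and release citrulline made from glutamine. Of the other enzymes, Tat starts the breakdown of tyrosine, Sds deaminates serine, Hal deaminates histidine, Got1 is the cytosolic aspartate aminotransferase and Gls2 is the liver-type glutaminase.

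Values are CPM, the reads of a gene scaled to the total of its library. The listed CPM summed to between 925122 and 998777 per library and the 10 most abundant genes took 4.8% to 30.1% of it. Total reads were not part of the tables, so the depth is unknown. Each tissue was tested alone, with limma on log2(CPM + 1), and a gene was called different when its Benjamini-Hochberg adjusted p was below 0.05 and its fold change at least 1.5. All log2 fold changes below are RYGB over sham on the log2(CPM + 1) scale, which understates changes of genes near 1 CPM. P values weigh the difference between the groups against the spread between libraries of a group. In bulk tissue, fewer cells of a type and less RNA per cell cannot be told apart.

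The tissue labels were checked against marker genes. The 7 listed hepatocyte markers summed to 89284.1 to 127055 CPM over the liver libraries, with Alb the most abundant, and 0 of 7 were called. All 8 enterocyte markers were listed in each intestinal segment, with sums of 20419.7 CPM or more. In ileum the markers Fabp6 and Slc10a2 summed to 0.2 to 25.4 CPM in sham and 1.7 to 101.1 CPM in RYGB, and 1 of these 2 defining genes of the distal ileum was called higher in RYGB. Sham ileum 1 and 5 were at 0.2 and 0.3 CPM, beside 0.3 to 2.5 CPM for Slc10a2 alone in jejunum. These markers therefore do not bear out the distal ileum in every library. The position sampled is not known, and whether it differed between the groups was not tested. All RYGB ileum libraries were run in sequencing lane 1 and all sham ileum libraries in other lanes, and for ileum the lane and the surgery cannot be told apart. In jejunum RYGB replicate 2 was the single library outside lane 1.

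In the liver, 0 of the 10 genes differed between RYGB and sham, and RYGB and sham values overlapped for each of them. Over all liver genes tested, 16.4% had groups that did not overlap, in either direction. Over all genes of the liver table, 836 of 11807 were called, or 7.08%. This background count was 544 without RYGB 2, 329 without RYGB 3, 394 without sham 1, 468 without sham 2 and 387 without sham 4. At an unadjusted p under 0.05 the count among the 10 genes was also 0, beside 26.9% of all liver genes. The lowest adjusted p by limma was 0.251, for Ass1. Their log2 fold changes lay between -0.55 and 0.29 with a median of -0.21, beside a median of 0.13 over all liver genes tested.

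Cps1, the ammonia-capturing first enzyme of the cycle, lies on chr1:67123026-67231259 of GRCm38 and was the most abundant of the 10 in CPM. It was at 4617.8, 3008.0, 3005.8 and 4835.5 CPM in the RYGB livers and at 2690.6, 4124.1, 4256.0 and 3750.9 CPM in the sham livers. The lowest value was a sham liver and the highest an RYGB liver. The log2 fold change was 0.05 (SE 0.23, 95% interval -0.47 to 0.56).

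Otc, which joins carbamoyl phosphate to ornithine and lies on chrX:10252305-10321024, was at 817.8, 404.9, 478.2 and 672.2 CPM in RYGB and 518.8, 616.2, 878.3 and 693.0 CPM in sham. Ass1, which adds aspartate nitrogen and lies on chr2:31470207-31520672, was at 801.2, 462.0, 387.6 and 653.9 CPM in RYGB and 651.5, 736.4, 1077.0 and 641.4 CPM in sham. Both genes had their lowest values in RYGB replicates 2 and 3 and their highest in sham replicate 3. The log2 fold change was -0.22 (95% interval -0.73 to 0.29) for Otc and -0.45 (-0.98 to 0.08) for Ass1.

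Asl, on chr5:130011258-130029247, averaged 429.6 ± 130.5 CPM (SD, n = 4) in RYGB and 408.9 ± 128.6 CPM (SD, n = 4) in sham. Arg1, on chr10:24915221-24927484, averaged 1067 ± 277.0 CPM in RYGB and 1145 ± 148.8 CPM in sham. For both, the difference between the means was smaller than either SD. Summed over the 5 urea cycle genes, the RYGB livers held 8230.7, 5273.3, 4886.8 and 7739.0 CPM and the sham livers 5569.1, 6923.3, 8030.2 and 6328.0 CPM.

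Among the 5 other enzymes, Tat was the single one with a mean above sham in RYGB liver, at 886.6, 1491.8, 785.5 and 935.9 CPM against 1220.0, 651.7, 712.9 and 765.6 CPM. Its log2 fold change was 0.29 (SE 0.24, adjusted p = 0.456 by limma). Hal was at 543.5, 191.8, 209.6 and 413.4 CPM in RYGB and 385.6, 329.1, 562.8 and 577.2 CPM in sham. RYGB replicates 2 and 3 lay below every sham liver for Hal, and replicates 1 and 4 did not, which left a log2 fold change of -0.55 (SE 0.32, adjusted p = 0.304 by limma). Sds ranged from 45.7 to 166.1 CPM in RYGB and 113.1 to 195.6 CPM in sham, Gls2 from 171.8 to 429.8 and 267.0 to 532.8 CPM, and Got1 from 147.1 to 322.8 and 178.8 to 394.7 CPM. Their log2 fold changes were -0.50, -0.36 and -0.20, each with an interval that spanned 0.

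**Figure D1:**
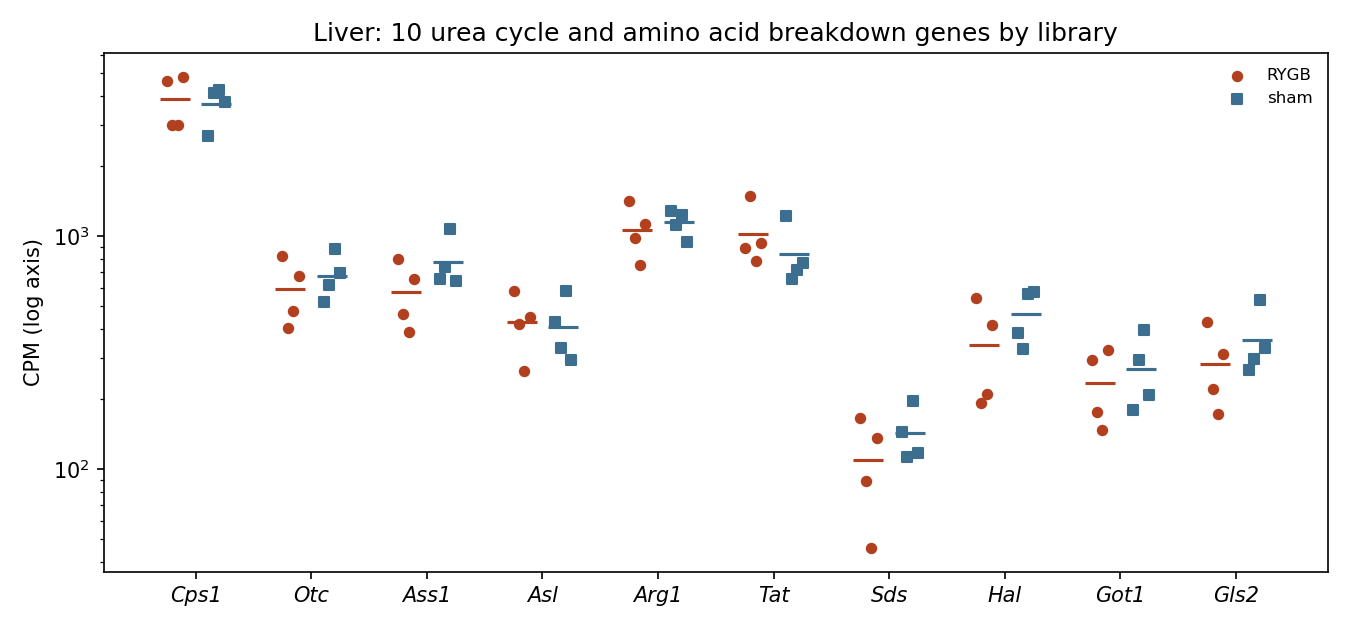
CPM on a log axis (vertical) of the 10 genes (horizontal) in the 8 liver libraries. Circles are RYGB livers, squares are sham livers and bars are group means. The groups overlap for every gene, and Cps1 lies highest, between 2690.6 and 4835.5 CPM.

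Per kilobase of annotated mRNA, the sham livers held Arg1 at 775.4 CPM per kb, Cps1 at 667.0, Ass1 at 457.9, Tat at 352.7 and Otc at 291.8. Asl at 169.5, Gls2 at 138.7, Got1 at 130.6, Sds at 110.6 and Hal at 87.2 CPM per kb followed. Cps1 thus came second to Arg1 once its length was taken into account.

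The spread between livers was shared by most of the genes. In 9 of the 10, all but Tat, RYGB replicates 1 and 4 were both above replicates 2 and 3. This order, noticed after the values were seen, was found in 698 of 11807 liver genes (5.91%), and the opposite order in 5331 (45.2%). In sham, replicate 3 had the highest value for 7 of the 10 genes, against 26.4% of all liver genes. Tat stood apart, with its highest value in RYGB replicate 2.

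The same libraries differed in other cell type markers. The 8 macrophage markers, of which 3 were called higher, summed to 702.7, 1869.0, 874.5 and 731.6 CPM in RYGB replicates 1 to 4 and to between 317.2 and 524.0 CPM in sham. The 4 listed neutrophil markers summed to 30.6, 609.9, 80.4 and 30.4 CPM in RYGB and to 7.6 to 16.0 CPM in sham. RYGB replicates 2 and 3 therefore had the highest sums of both lists. Hepatocyte markers summed to 109355.2 and 94288.6 CPM in replicates 2 and 3 and to 127055.3 and 114877.4 CPM in replicates 1 and 4. In sham livers 1 to 4 they summed to 105162.8, 89284.1, 91956.7 and 105763.1 CPM, so RYGB replicate 2 lay above every sham liver. The part of these cells in the order of the 10 genes was not tested. Without RYGB replicate 2, 0 of the 10 genes were called.

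**Figure D2:**
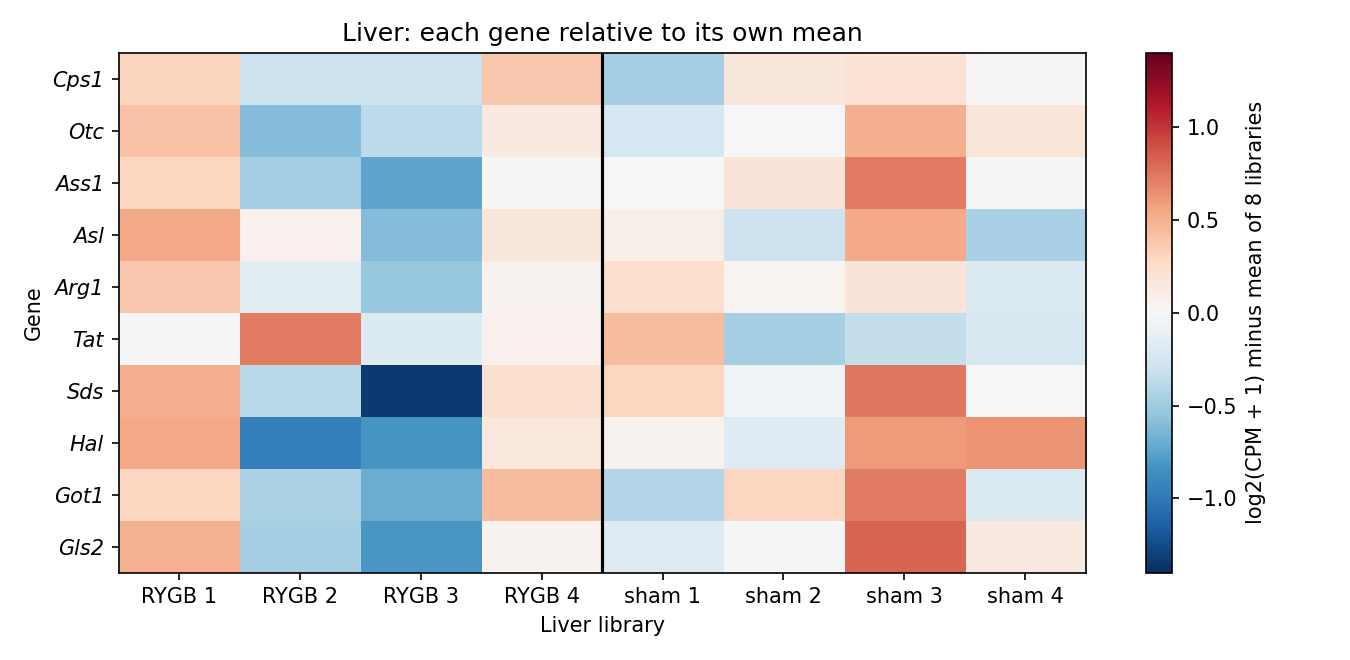
Log2(CPM + 1) of each gene (rows) minus its mean over the 8 liver libraries (columns), with the scale on the colour bar and a line between RYGB and sham. RYGB 2 and RYGB 3 are below RYGB 1 and RYGB 4 for 9 of the 10 genes, and Tat is highest in RYGB 2.

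Genes around these enzymes were read from 9 lists of nitrogen supply and amino acid breakdown that held 81 further genes, of which 78 were tested in liver. Of these, 6 were called, 2 higher and 4 lower in RYGB, or 7.69% beside 7.08% of all liver genes. The share was near the background. The lists with no called liver gene were the aminotransferases (0 of 8), branched-chain amino acid breakdown (0 of 17) and histidine breakdown (0 of 3).

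Csad, which makes taurine precursors from cysteine, had the largest difference of the 6. It was at 470.5, 281.7, 158.8 and 182.0 CPM in RYGB and 81.0, 69.0, 53.4 and 80.1 CPM in sham. Every RYGB liver lay above every sham liver, a separation in either direction that 16.4% of liver genes had. Csad was the 1 called gene of 10 of methionine and cysteine breakdown, with a log2 fold change of 1.82 (SE 0.29, adjusted p = 0.0076 by limma).

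The 4 genes with lower values each came from a separate list. Haao, of tryptophan breakdown (1 of 7 called), was at 364.5, 186.1, 209.6 and 275.8 CPM in RYGB and 440.8, 466.9, 423.6 and 460.4 CPM in sham, a log2 fold change of -0.84 (SE 0.19). Qdpr, which regenerates the cofactor of phenylalanine hydroxylase (phenylalanine and tyrosine breakdown, 1 of 7), fell by 0.82 (SE 0.19) on the log2 scale. Prodh, which starts proline breakdown (lysine and proline breakdown, 1 of 6), fell by 0.81 (SE 0.19), and Shmt1, which interconverts serine and glycine (serine, glycine and threonine breakdown, 1 of 10), fell by 0.60 (SE 0.14). All 4 were lowest in RYGB replicate 2, the library with the highest macrophage and neutrophil marker sums above. The part of these cells in the 4 genes was not tested.

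Of the 5 calls described here, that of Csad held when each library was left out in turn. The other calls did not. The call was lost for Shmt1 without RYGB replicates 2 or 3 or sham 2 or 4 (highest adjusted p = 0.0755), and for Haao without RYGB 3, sham 1, sham 2 or sham 4 (0.0774). It was lost for Prodh without RYGB 2, RYGB 3, sham 1, sham 2 or sham 4 (0.0905), and for Qdpr without RYGB 2, RYGB 3 or any of the 4 sham livers (0.0913), all by limma. The count of called genes in these lists was 1 without RYGB 3 or sham 4, 2 without sham 2, and 3 without RYGB 2 or sham 1.

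Regulators of these enzymes and hormone-responsive liver genes had 3 of 14 called, all higher. Of all liver genes tested, 7.08% were called, 684 genes higher and 152 lower. Ppargc1a, a coactivator of the fasting response, rose by 0.72 (SE 0.15), Fkbp5, a glucocorticoid-responsive chaperone, by 1.08 (SE 0.23), and Igfbp1, an insulin-suppressed secreted protein, by 2.89 (SE 0.59) on the log2 scale. Igfbp1 was at 49.3, 492.2, 182.6 and 171.9 CPM in RYGB and 40.2, 10.3, 29.3 and 17.5 CPM in sham, highest in the library that was also highest for Tat. Trib3, 1 of 9 tested genes of the amino acid response, rose by 1.14 (SE 0.26). Call losses were without sham 1, 2 or 4 for Ppargc1a (adjusted p up to 0.0567), RYGB 3 or sham 4 for Igfbp1 (0.0576), sham 4 for Fkbp5 (0.0547), and RYGB 3, sham 1, 2 or 4 for Trib3 (0.0771).

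Periportal hepatocyte genes mark the zone where the urea cycle is strongest. They had 2 of 6 called and pericentral genes 0 of 7, beside 7.08% of all liver genes. Hsd17b6 was at 161.7, 100.8, 150.1 and 188.6 CPM in RYGB and 17.4, 34.3, 125.0 and 52.8 CPM in sham (log2 fold change 1.69, SE 0.46), and Hsd17b13 rose by 0.66 (SE 0.18). The groups overlapped for Hsd17b6 but not for Hsd17b13. Neither call held under median-ratio scaling of the libraries (adjusted p = 0.0767 and 0.0972), and each was lost without any one library except sham replicate 3 (up to 0.117 and 0.114), by limma. With a minimum of 10 CPM the adjusted p of Hsd17b6 was 0.0514.

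Promoter sequence is shown for 4 genes, because Tat and Ass1 were the 2 genes of the 10 called in any tissue, Got1 had separate groups in muscle, and Otc was expressed in liver and intestine without a call. They are the 250 bases before the RefSeq start, on the coding strand, build GRCm38.p6, and 5 of the 10 genes had an entry. Capitals mark the core of the TATA box (TATAA), the CCAAT box (CCAAT), the short cAMP response element (TGACG) and the nuclear receptor core site (AGGTCA), searched on both strands.
Otc (chrX:10252055-10252304, plus strand): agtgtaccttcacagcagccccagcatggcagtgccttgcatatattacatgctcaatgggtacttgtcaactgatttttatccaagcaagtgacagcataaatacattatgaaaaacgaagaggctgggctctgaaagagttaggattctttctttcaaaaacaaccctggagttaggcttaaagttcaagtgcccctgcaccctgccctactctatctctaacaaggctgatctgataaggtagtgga
Ass1 (chr2:31470020-31470269, plus strand): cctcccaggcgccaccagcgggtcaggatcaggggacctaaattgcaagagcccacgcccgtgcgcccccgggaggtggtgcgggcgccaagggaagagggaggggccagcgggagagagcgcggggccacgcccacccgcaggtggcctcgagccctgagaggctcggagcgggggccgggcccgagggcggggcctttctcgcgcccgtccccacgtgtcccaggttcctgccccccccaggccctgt
Tat (chr8:109990186-109990435, plus strand): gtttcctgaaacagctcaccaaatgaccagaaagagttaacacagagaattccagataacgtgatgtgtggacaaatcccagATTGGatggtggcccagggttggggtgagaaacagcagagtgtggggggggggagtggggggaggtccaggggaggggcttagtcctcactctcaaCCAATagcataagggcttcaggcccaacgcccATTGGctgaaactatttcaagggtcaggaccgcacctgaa
Got1 (chr19:43524606-43524855, minus strand): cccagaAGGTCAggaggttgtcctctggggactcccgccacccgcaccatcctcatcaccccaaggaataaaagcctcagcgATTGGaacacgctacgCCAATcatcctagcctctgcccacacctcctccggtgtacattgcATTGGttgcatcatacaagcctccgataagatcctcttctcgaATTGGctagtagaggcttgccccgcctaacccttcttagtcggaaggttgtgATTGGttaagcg

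None of the 4 motifs was found in the Otc or Ass1 window. The Tat window held CCAAT at -72 to -68 and its reverse complement at -168 to -164 and at -40 to -36, counted from the start. The Got1 window held CCAAT once on the coding strand, at -152 to -148, and 4 times on the opposite strand, and AGGTCA at -244 to -239. Of 32851 promoter windows of the same length, 33.8% held CCAAT, 22.8% TATAA, 17.8% TGACG and 14.0% AGGTCA. G and C made up 75.6% of the Ass1 window and 43.6% of the Otc window. These are descriptions of the letters alone.

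In the intestine, the citrulline-forming genes Cps1 and Otc were expressed in all 3 segments and were not called in any of them. Cps1 in sham villi averaged 371.1 ± 125.0 CPM in duodenum (SD, n = 4), 119.5 ± 63.3 CPM in jejunum (n = 4) and 99.0 ± 32.3 CPM in ileum (n = 5), beside 3705 ± 709.5 CPM in sham liver (n = 4). Duodenum lay above the other segments without overlap, and jejunum and ileum overlapped. Otc in sham villi averaged 111.2 ± 55.0, 119.1 ± 12.1 and 91.1 ± 14.5 CPM in the 3 segments, beside 676.6 ± 152.2 CPM in liver. Duodenum, at 41.4 to 170.4 CPM, overlapped both other segments. Jejunum, at 107.4 CPM or more, lay above ileum, at 104.9 CPM or less. The tables were normalised separately, so these levels were set side by side without a test.

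In the duodenum, which food bypasses after RYGB, 0 of 4 listed genes were called, beside 1 of 10850 genes (0.00922%) in the table. Cps1 was at 429.0, 299.8 and 407.5 CPM in RYGB and 421.1, 299.8, 521.6 and 242.1 CPM in sham, so the sham values spanned those of RYGB. The log2 fold changes were 0.07 for Cps1 (95% interval -0.56 to 0.71), 0.41 for Otc (-0.58 to 1.39), 0.19 for Asl (-0.19 to 0.57) and 0.02 for Got1 (-0.40 to 0.45). At an unadjusted p under 0.05 the count was 0 of 4. Of 51 further enzymes tested, 0 were called, and 12 (23.5%) had an unadjusted p under 0.05, beside 18.8% of all duodenum genes. Without sham replicate 4, 6 of the further enzymes and 757 of 10854 genes were called, and 0 of the 4 genes.

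In the jejunum, to which the pouch is joined in RYGB, 1 of 5 listed genes was called, beside 1058 of 10854 genes (9.75%). The labels do not say which limb of the rearranged jejunum was sampled. The background count was 462 without RYGB 2, 626 without sham 1 and 586 without sham 3. The called gene was Tat, on chr8:109990437-109999803, whose promoter is shown above. Tat was at 2.2, 45 and 7.2 CPM in RYGB and 0.7, 0.3, 0.4 and 0.4 CPM in sham. Every RYGB value was above every sham value, and the 3 RYGB values were far apart. The log2 fold change was 2.88 (SE 0.69, adjusted p = 0.0297 by limma). The sham mean of 0.5 CPM is below the minimum of 1 CPM, so Tat entered the test only through the RYGB libraries in which it was high, and the count of 1 of 5 is given as a description.

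The call of Tat rested on few libraries and low values. Without RYGB replicate 2, the library in its own lane, the log2 fold change was 1.83 and the call held, and without RYGB replicate 1 it was 3.75 and the call held. It was lost without RYGB replicate 3 or any one of the 4 sham libraries, with adjusted p from 0.0516 to 0.0740 by limma. The 8 enterocyte markers summed to 34451.7 to 41371.8 CPM in RYGB and 35100.5 to 49951.8 CPM in sham. The 5 listed macrophage markers summed to 24.9 to 32.4 CPM in RYGB and 8.3 to 17.7 CPM in sham, and the 1 listed neutrophil marker lay at 8.8 to 25.2 and 1.7 to 6.0 CPM. Their part in the Tat values was not tested. In ileum, Tat was at 0.8, 0.4, 12.6, 2.0 and 0.2 CPM in RYGB and 1.9, 7.2, 2.6, 5.3 and 0.7 CPM in sham, with a log2 fold change of -0.58 (SE 0.62) and overlapping groups. The duodenum table did not list Tat.

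Asl, which splits argininosuccinate, was at 22.1, 22.6 and 21.8 CPM in RYGB jejunum and 14.1, 16.6, 11.8 and 20.5 CPM in sham. The groups did not overlap, as for 22.2% of all jejunum genes tested, and the log2 fold change of 0.49 (SE 0.21, adjusted p = 0.180 by limma) was not called. Cps1 in jejunum was at 93.1, 120.7 and 274.1 CPM in RYGB and 55.7, 197.8, 141.7 and 82.9 CPM in sham. Its log2 fold change of 0.44 had a 95% interval from -0.57 to 1.46. Otc (0.13, interval -0.31 to 0.58) and Got1 (-0.03, interval -0.40 to 0.35) had narrower intervals.

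Some genes of nitrogen supply and handling were lower in RYGB jejunum. In the list of nitrogen supply 3 of 10 tested genes were called, all of them lower, beside 9.75% of all jejunum genes. Of the 10, 8 had an unadjusted p under 0.05 (7 lower and Glul higher), beside 24.6% of all jejunum genes. The median log2 fold change of the list was -0.80, beside -0.04 over all jejunum genes. Slc25a15, the mitochondrial ornithine carrier that serves Otc, was at 162.8, 206.0 and 153.4 CPM in RYGB and 368.4, 342.2, 483.5 and 383.4 CPM in sham. Its log2 fold change was -1.17 (SE 0.18, adjusted p = 0.00448 by limma), and the call held without each library in turn.

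Slc25a13, the mitochondrial aspartate-glutamate carrier, was at 16.0, 14.7 and 13.1 CPM in RYGB and 23.7, 36.4, 27.5 and 32.7 CPM in sham (log2 fold change -0.98, SE 0.20). Arg2, the mitochondrial arginase, was at 281.9, 215.4 and 210.6 CPM in RYGB and 343.1, 461.4, 412.0 and 500.7 CPM in sham (log2 fold change -0.86, SE 0.19). For both, all RYGB values were below all sham values. The call of Slc25a13 was lost without RYGB replicate 2 (adjusted p = 0.0520), which is also the within-lane fit, and that of Arg2 without RYGB replicates 2 or 3 or sham 3 (up to 0.0914), by limma. Uncalled genes of the list included Glud1 at a log2 fold change of -0.86, Oat at -1.02 and Aldh18a1 at -0.63, and Glul at 0.87.

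**Figure D3:**
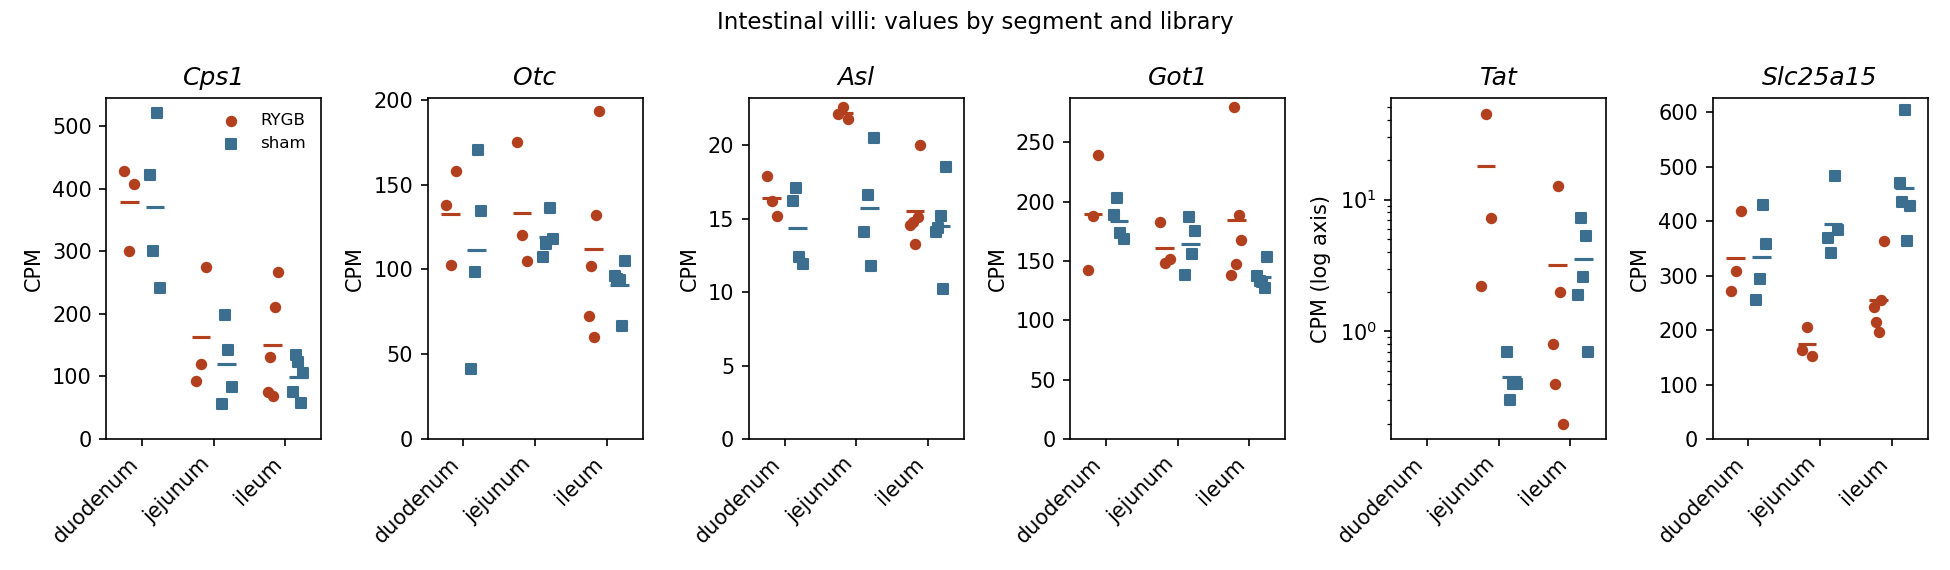
CPM (vertical) by intestinal segment (horizontal) for Cps1, Otc, Asl, Got1, Tat and the ornithine carrier Slc25a15. Circles are RYGB and squares sham libraries, bars are group means, and Tat has a log axis. Slc25a15 in RYGB jejunum lies at 153.4 to 206.0 CPM, below the sham range of 342.2 to 483.5 CPM, while Cps1 and Otc overlap.

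Over the 9 enzyme lists, 7 of 51 genes tested in jejunum were called (13.7%, beside 9.75% of all jejunum genes), 5 lower and 2 higher. Besides the 3 above, Ahcy, which hydrolyses S-adenosylhomocysteine (methionine and cysteine breakdown, 1 of 4), fell by 1.08 (SE 0.26), and Bcat2, the mitochondrial branched-chain aminotransferase, by 1.01 (SE 0.25) on the log2 scale. Pccb, a subunit of propionyl-CoA carboxylase, was at 152.4, 150.9 and 143.6 CPM in RYGB and 37.6, 71.4, 65.5 and 86.2 CPM in sham, a rise of 1.24 (SE 0.25). Bcat2 and Pccb were the 2 called genes of 16 of branched-chain amino acid breakdown and moved in opposite directions. Prodh, lower in RYGB liver, rose by 1.12 (SE 0.30) in jejunum and was the 1 called gene of 4 of lysine and proline breakdown. The difference between the tissues was not tested.

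Without RYGB replicate 2, 1 of these 7 genes was called, Slc25a15, and the other calls ended (adjusted p up to 0.135 for Prodh and 0.126 for Bcat2). Over all genes of the lists, 4 were called without RYGB 3, sham 3 or sham 4, and 6 without sham 2, some of them outside these 7. Pccb was lost without RYGB replicate 2 alone (0.0556). Prodh was also lost without RYGB 3 or sham 2, 3 or 4, Bcat2 without any 1 sham library, and Ahcy without any 1 RYGB library, sham 2 or sham 4 (up to 0.0838).

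Both gluconeogenic enzymes in the lists, which use the carbon of amino acids, were lower in RYGB jejunum. Pck1, the cytosolic PEP carboxykinase, was at 10.0, 8.8 and 2.3 CPM in RYGB and 208.1, 82.8, 251.5 and 139.5 CPM in sham, a log2 fold change of -4.48 (SE 0.46, adjusted p = 0.000862 by limma). G6pc, glucose-6-phosphatase, fell by 2.21 (SE 0.56, with a log2 fold change of -1.33 without RYGB 2 and -2.81 without RYGB 1), and Klf15, a transcription factor of amino acid breakdown, by 1.84 (SE 0.23). Klf15, with a mean of 0.3 CPM in RYGB, reached the 1 CPM minimum only through the sham libraries. Pck1, G6pc and Klf15 were the 3 called genes of 12 regulators and hormone-responsive genes, beside 9.75% of all jejunum genes. The call of G6pc was lost without RYGB replicate 3 or any 1 sham library (adjusted p up to 0.0762 by limma), and those of Pck1 and Klf15 were not lost without any library. Of 7 tested genes of the amino acid response, 2 were called, both higher. Asns, asparagine synthetase, was at 12.7, 25.8 and 40.2 CPM in RYGB and 4.3, 4.1, 4.8 and 6.7 CPM in sham (log2 fold change 2.07, SE 0.34), and Ddit4, a stress-induced inhibitor of mTORC1, rose by 1.94 (SE 0.29). Cdh1, E-cadherin, the 1 called gene of 5 of the periportal list, rose by 0.69 (SE 0.18), and its call was lost without any 1 of the 7 libraries (adjusted p from 0.0532 to 0.158). Pericentral genes had 0 of 2 called.

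In the ileum, 0 of 5 listed genes were called by limma, beside 650 of 10735 genes (6.05%). An unadjusted p under 0.05 was found for 1 of 5, beside 26.5% of all ileum genes. The background count of called genes was 327 without RYGB 2, 403 without sham 1, 312 without sham 3, 428 without sham 4 and 385 without sham 5. The gene with the low unadjusted p was Got1, on chr19:43499752-43524605, whose product makes aspartate, the second nitrogen donor of urea. It was at 137.8, 279.6, 147.6, 188.6 and 167.5 CPM in RYGB and 137.6, 132.8, 132.0, 126.9 and 153.0 CPM in sham. The highest value, in RYGB replicate 2, lay well above the rest, and the groups overlapped. The log2 fold change was 0.39 (SE 0.17, adjusted p = 0.167).

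Cps1 in ileum was at 74.6, 131.2, 69.3, 210.5 and 266.9 CPM in RYGB and 74.4, 134.4, 123.1, 57.9 and 105.3 CPM in sham, and Otc at 72.4, 102.0, 60.2, 132.0 and 193.4 CPM and 96.1, 94.5, 93.5, 66.4 and 104.9 CPM. RYGB replicates 4 and 5 were the highest of the 10 libraries for both genes. The log2 fold changes of 0.47 for Cps1 (95% interval -0.34 to 1.27) and 0.19 for Otc (-0.40 to 0.77) were not called. Asl averaged 15.6 ± 2.6 CPM in RYGB and 14.5 ± 3.0 CPM in sham (SD, n = 5 each).

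Slc25a15, the ornithine carrier, was also lower in RYGB ileum, at 243.1, 214.7, 196.4, 255.8 and 362.8 CPM against 470.7, 436.0, 603.8, 364.3 and 427.2 CPM in sham. No RYGB value reached the lowest sham value, a separation in either direction that 9.34% of ileum genes had. The log2 fold change was -0.87 (SE 0.17, adjusted p = 0.0151 by limma). The call held without each of the 10 libraries. Besides the ileal markers above, 1 of 4 listed macrophage markers was called higher, with sums of 10.1 to 21.7 CPM in RYGB and 3.6 to 10.4 CPM in sham, as was the 1 listed adipocyte marker, Cidec, at 113.6 to 305 CPM and 74.3 to 110.7 CPM. Their part in the ileum results was not tested. In duodenum the carrier averaged 333.3 CPM in RYGB and 334.4 CPM in sham (log2 fold change 0.00, SE 0.23), and in liver 447.5 and 484.5 CPM (-0.12, SE 0.15). Whether the difference varied between tissues was not tested.

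Of the 51 further enzymes tested in ileum, 2 were called (3.92%, beside 6.05% of all ileum genes), both lower. Slc25a15 was the 1 of 10 of nitrogen supply. Ppm1k, the phosphatase that activates branched-chain ketoacid dehydrogenase, was the 1 of 16 of branched-chain amino acid breakdown, at 2.6, 2.7, 1.3, 3.6 and 3.6 CPM in RYGB and 6.7, 4.7, 9.6, 6.4 and 4.9 CPM in sham (log2 fold change -0.99, SE 0.23). Its call was lost without RYGB 2 or sham 1, 3 or 4 (adjusted p up to 0.0649 by limma), which left 1 called enzyme, while 5 were called without RYGB 5. Of 12 regulators and hormone-responsive genes, 2 were called, both lower. Pck1 fell by 2.13 (SE 0.45) and Nr3c1, the glucocorticoid receptor, by 0.73 (SE 0.15). Nr3c1 fell short of the fold limit without RYGB 3 (-0.58). The Pck1 groups overlapped, with RYGB 2 at 165.7 CPM and sham 2 at 127.0 CPM. The call of Pck1 held without each library but not with a replicate block (adjusted p = 0.0558 by limma).

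In WAT, 1 of 3 listed genes was called, beside 3231 of 13379 genes (24.1%). Ass1 was at 4.6, 7.1, 6.8 and 13.8 CPM in RYGB and 1.5, 2.1, 1.9 and 2.0 CPM in sham. Every RYGB value was above every sham value, which held for or against RYGB in 41.2% of all WAT genes tested. The log2 fold change was 1.57 (SE 0.27, adjusted p = 0.00416 by limma), and it stayed between 1.30 and 1.77 when each library was left out, with the call held each time. Asl, the next enzyme of the cycle, was at 22.1, 24.3, 22.9 and 26.5 CPM in RYGB and 22.0, 21.7, 22.1 and 24.5 CPM in sham (log2 fold change 0.08, 95% interval -0.14 to 0.30). Got1 was at 16.5, 22.3, 18.3 and 27.5 CPM in RYGB and 16.6, 18.6, 16.9 and 18.4 CPM in sham (0.23, interval -0.12 to 0.58).

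Other cell type markers differed between the same WAT groups. The 7 B cell markers, all called higher, summed to 1036.1, 1610.3, 1965.2 and 2765.8 CPM in RYGB replicates 1 to 4 and to 12.8 to 23.8 CPM in sham. The 6 adipocyte markers, of which 1 was called lower, summed to 16499.1, 15987.1, 12219.2 and 8150.2 CPM in RYGB and 16082.5 to 23706.9 CPM in sham. The 8 macrophage markers, of which 3 were called lower, summed to 1845.7 to 2581.9 CPM in RYGB and 2004.9 to 3571.2 CPM in sham. The 4 listed keratinocyte markers, of which 2 were called lower, summed to 5.2 to 7.7 CPM in RYGB and 4.2 to 152.8 CPM in sham. RYGB replicate 4, the highest for Ass1, Asl and Got1, was also the highest for B cell markers and the lowest for adipocyte markers. Its 3 listed neutrophil markers summed to 232.8 CPM, beside 7.3 to 19.2 CPM in the other 7 libraries, and without it the log2 fold change of Ass1 was 1.30. The part of these cells in the Ass1 values was not tested.

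Of 56 further enzymes tested in WAT, 8 were called (14.3%, beside 24.1% of all WAT genes), 7 higher and 1 lower. At an unadjusted p under 0.05 there were 14 (25.0%), beside 50.0% of all WAT genes. In tryptophan breakdown 4 genes were tested and called higher, and 3 of them had the largest differences of the 8. Tdo2, the other listed gene, had a mean below 1 CPM and was not tested. Kynu and Haao had sham means below 1 CPM and entered the test only through the RYGB libraries, so the count of 4 is a description. Haao was at 19.4, 26.4, 37.0 and 56.5 CPM in RYGB and 0.9, 1.0, 1.0 and 0.9 CPM in sham (log2 fold change 4.09, SE 0.28, adjusted p = 4.53e-05 by limma). Kynu, kynureninase, was at 8.3, 9.5, 14.7 and 21 CPM in RYGB and 0.2 to 0.3 CPM in sham (3.41, SE 0.26), and Kmo, kynurenine monooxygenase, at 21.2, 32.6, 46.6 and 64.0 CPM and 3.5 to 6.1 CPM (2.86, SE 0.31). Afmid, which forms kynurenine, rose by 0.86 (SE 0.22). Within RYGB the 4 libraries had the same order for Haao, Kynu, Kmo, Afmid and the B cell marker sum. The part of B cells in these values was not tested.

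**Figure D4:**
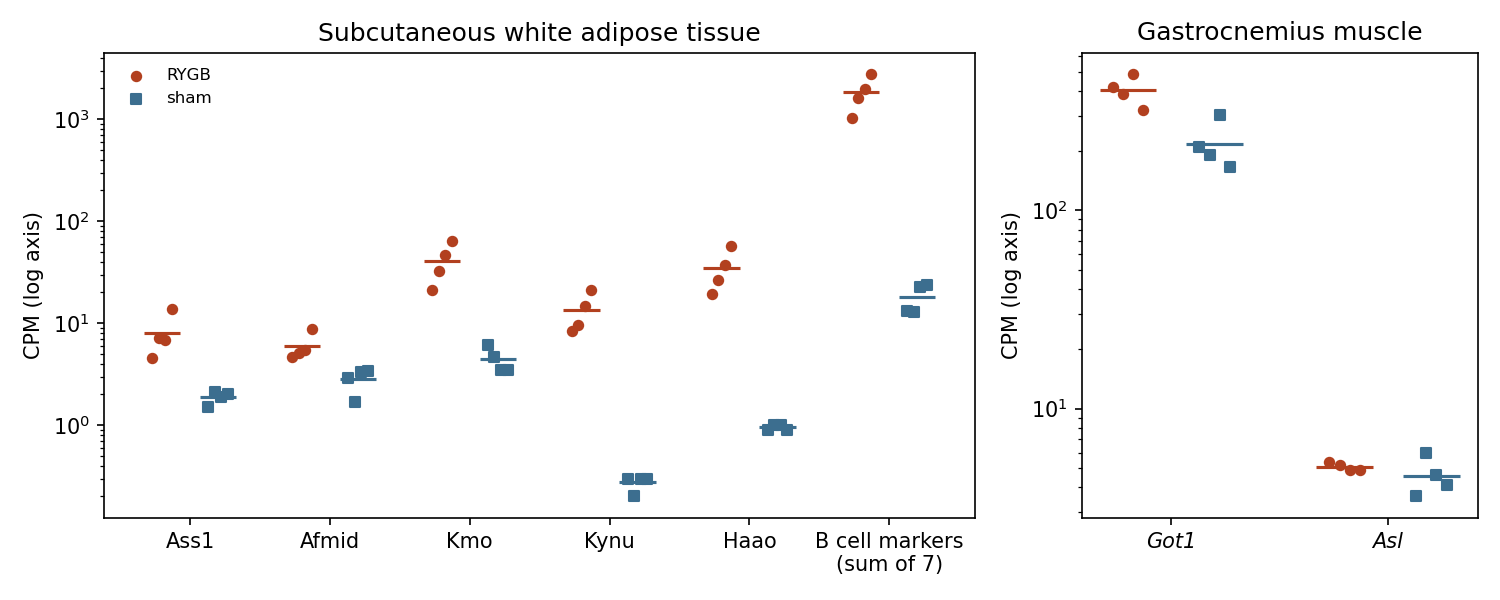
CPM on a log axis (vertical) in WAT for Ass1, 4 genes of tryptophan breakdown and the sum of 7 B cell markers, and in muscle for Got1 and Asl (horizontal). Circles are RYGB and squares sham libraries, with bars at group means. Ass1 lies at 4.6 to 13.8 CPM in RYGB and 1.5 to 2.1 CPM in sham, and B cell markers at 1036.1 CPM or more against 23.8 CPM or less.

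The other called WAT enzymes were Ppm1k (1 of 17 of branched-chain amino acid breakdown), which rose by 0.77 (SE 0.17), Shmt2, the mitochondrial serine hydroxymethyltransferase (1 of 9), by 0.67 (SE 0.18), Aldh18a1, which makes the precursor of proline and ornithine (1 of 8 of nitrogen supply), by 0.60 (SE 0.18), and Abat, GABA transaminase (1 of 4 aminotransferases), which fell by 1.32 (SE 0.30) on the log2 scale. Shmt2 was lost without RYGB 2 or 4 or sham 2 or 3 (adjusted p up to 0.0560), and Aldh18a1 without RYGB 2 or 4 or sham 1, 3 or 4 (up to 0.0729), by limma. Under median-ratio scaling both were below the fold limit (0.56 and 0.49).

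Outside the enzyme lists, Gcgr, the glucagon receptor, fell by 1.14 (SE 0.30) and Creb3l3, a fasting-induced transcription factor, by 0.78 (SE 0.15), the 2 called of 11 regulators, and Trib3 fell by 0.80 (SE 0.22), 1 of 11 of the amino acid response. Gcgr was lost without sham 4 (adjusted p = 0.0523) and Trib3 without RYGB 3 or sham 2, 3 or 4 (up to 0.0611) and with lane as a covariate (0.0717), by limma. Trib3 was higher in RYGB liver and lower in RYGB WAT, a difference that was not tested. From the zonation lists, Aldh1b1, an aldehyde dehydrogenase, rose by 1.00 (SE 0.24, 1 of 4 periportal) and Slc1a2, a glutamate transporter, by 1.91 (SE 0.25, 1 of 4 pericentral). Slc1a2 was at 2.1 to 5.5 CPM in RYGB and 0.1 to 0.3 CPM in sham, so it entered the test only through the RYGB libraries.

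In muscle, 0 of 2 listed genes were called by limma, beside 0 of 11966 genes (0%), whereas 1 of the 2 and 1746 of all genes had an unadjusted p under 0.05. Got1 was at 417.0, 387.6, 486.7 and 322.0 CPM in RYGB and 207.9, 190.8, 301.9 and 165.2 CPM in sham. All RYGB values were above all sham values, a separation in either direction that 7.4% of muscle genes had. The log2 fold change was 0.92 (SE 0.19, 95% interval 0.50 to 1.33, adjusted p = 0.112). Leaving out RYGB 4 or sham 3 brought a call (adjusted p = 0.0335 and 0.0313), and with lane as a covariate the adjusted p was 0.441, by limma. Sham 3 and 4 filled lane 3 and RYGB 3 and 4 filled lane 4, so the lane fit compared the groups within lane 2 alone. Under the settings that kept all libraries, lane included, the log2 fold change lay between 0.87 and 1.01. Over all muscle genes 210 were called without RYGB 4 and 57 without sham 3. In sham 3 the 6 adipocyte markers summed to 1161.0 CPM, beside 149.3 to 485.8 CPM in the other 7 libraries, and their part in the Got1 values was not tested.

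Got2, the mitochondrial partner of Got1 in the malate-aspartate shuttle, was at 186.7, 193.4, 200.8 and 141.6 CPM in RYGB muscle and 119.3, 109.6, 131.3 and 98.9 CPM in sham. Its groups did not overlap either, with a log2 fold change of 0.64 (SE 0.13, adjusted p = 0.112 by limma), and it is named here because of these values. Of 48 further enzymes 0 were called and 12 had an unadjusted p under 0.05 (25%, beside 14.6% of all muscle genes), and 1 was called without RYGB 4. The 6 skeletal muscle markers summed to 133134 to 170738 CPM in RYGB and 159655 to 206155 CPM in sham. The 4 markers of the smooth muscle list, most of it Des, which skeletal muscle also expresses, summed to 3781.2 to 4073.4 CPM in RYGB and 2665.8 to 2891.3 CPM in sham. Their part in the Got1 values was not tested. Asl was at 3.6 to 6.0 CPM over the 8 muscle libraries (log2 fold change 0.15, SE 0.14).

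Across tissues the genes had different reach in sham mice, read within the limits of separate tables. Arg1, Sds, Hal and Gls2 were listed in liver alone. Ass1 averaged 776.6 ± 204.8 CPM in liver and 1.9 ± 0.3 CPM in WAT, and Tat 837.5 ± 259.2 CPM in liver, 3.5 ± 2.7 CPM in ileum and 0.5 ± 0.2 CPM in jejunum (SD, n = 4, 5 in ileum). Asl averaged 408.9 CPM in liver, 22.6 CPM in WAT, 14.4 to 15.8 CPM in the intestinal segments and 4.6 CPM in muscle, and the 3 intestinal ranges overlapped. Got1 was the most evenly spread, at 268.8 CPM in liver, 216.4 CPM in muscle, and 183.6, 164.1 and 136.5 CPM from duodenum to ileum, where each neighbour in this order overlapped the next, and at 17.6 CPM in WAT, below them all.

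**Figure D5:**
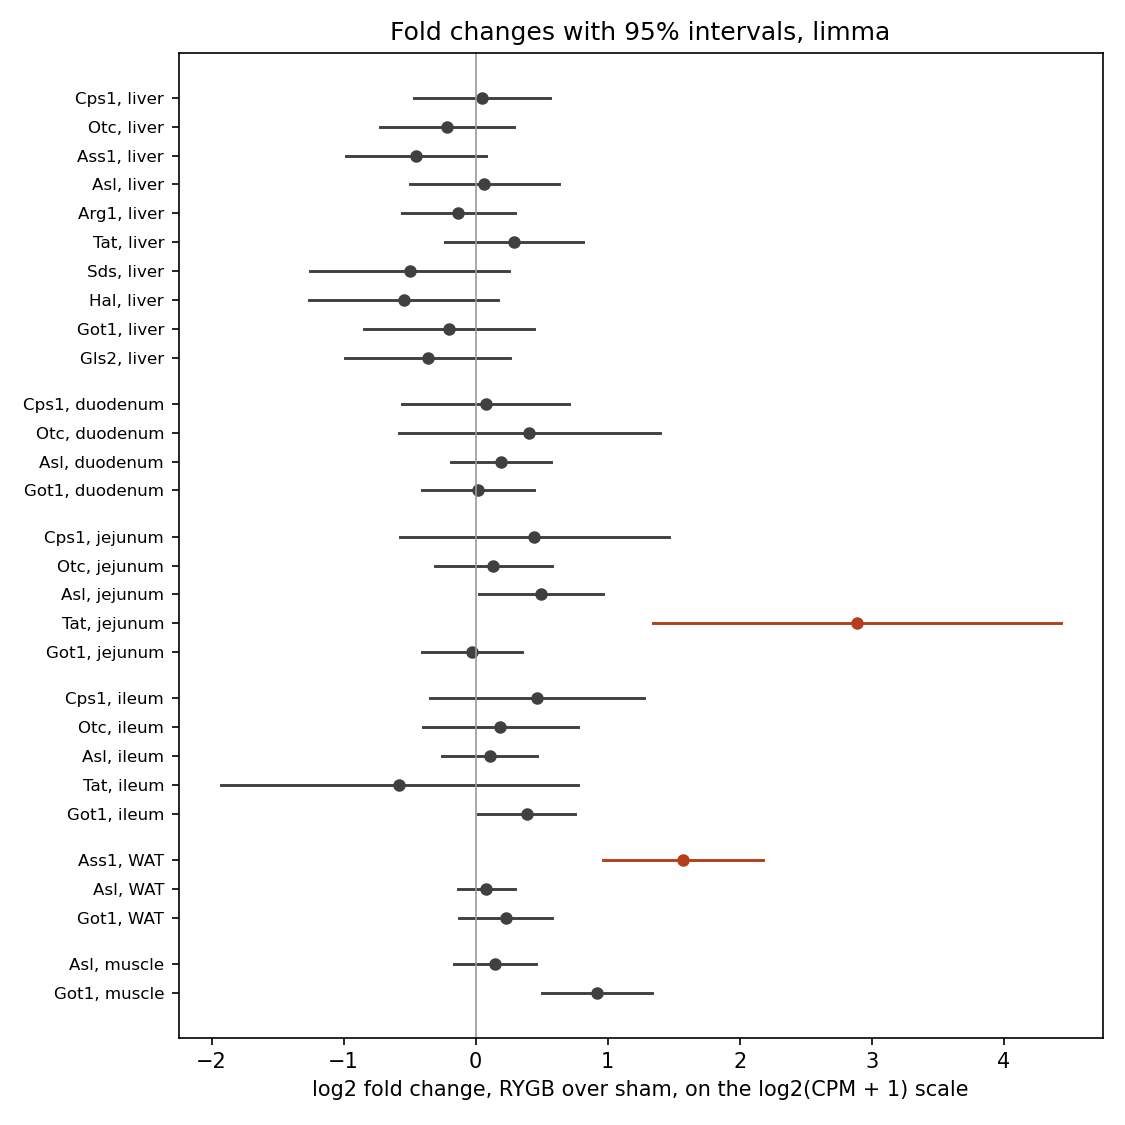
Log2 fold changes of RYGB over sham on the log2(CPM + 1) scale (horizontal) for each of the 10 genes in each tissue that listed it (vertical). Points are estimates, lines are 95% intervals from limma, and the called results are red. These are Tat in jejunum at 2.88 and Ass1 in WAT at 1.57.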

How the data were processed

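The authors deposited 1 table of CPM values (reads of a gene scaled to the library total) for each tissue, 1 column per mouse, rounded to 0.1. The submitters' processing notes name HTSeq and GRCm38, and the aligner and annotation are not given in the sources used here. The kit was TruSeq Stranded mRNA. A few abundant genes can shift all other CPM values. Lines repeating a gene were counted once (1 to 408 per table), and 12 incomplete lines of the liver table were left out. Each tissue was fitted alone with limma 3.58.1 (empirical Bayes with trend, R 4.3.3) on log2(CPM + 1), for genes whose mean reached 1 CPM, without covariates, and p-values were adjusted by Benjamini-Hochberg over the tissue. A called gene had an adjusted p below 0.05 and a fold change of at least 1.5. The test was checked on simulated data. Every one of the 10 genes is reported in each tissue that lists it. Of the lists, called genes are named, up to 12 per tissue by size, and all those of a list with 5 or fewer called. One gene that the rule would name is not reported here. Members and lists were chosen with earlier results of these data known. Loci and mRNA lengths are from GENCODE M21 (GRCm38), promoters from RefSeq (GRCm38.p6). Whether replicate numbers pair the libraries is not known. Same-numbered samples had correlations of -0.28 to 0.39, which cannot settle it, and no pairing was used in the main fit. Figures were drawn with matplotlib 3.10.9. Alternatives were a pseudocount of 0.1, no minimum, a minimum of 10 CPM, median-ratio scaling, lane as a covariate, a replicate block, adjusted p alone, and leaving out each library.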

Additional observations from a re-analysis of the deposited data

Results flagged for a closer look

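Over 49 groups of 4 or 5 libraries of the 10 genes, 2 held a value far from the others, where chance gives about 2.5. In sham ileum, Otc was at 66.4 CPM in replicate 4 and next lowest at 93.5 CPM, a gap of 0.748 of the group's range on the log2 scale. In sham WAT, Asl was at 24.5 CPM in replicate 4 and next highest at 22.1 CPM, a gap of 0.85 of the range.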

How the results depend on the processing

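With each library left out in turn, none of the 10 genes was called in liver, duodenum or ileum under any alternative run, the count was 0 to 1 in jejunum and 0 to 1 in muscle, and it was 1 throughout in WAT. With a minimum of 10 CPM it was 0 in jejunum and 0 in WAT, because Tat and Ass1 were then not tested. The further enzymes called were without single libraries 1 to 9 in liver, 0 to 6 in duodenum, 1 to 7 in jejunum, 1 to 5 in ileum and 0 to 1 in muscle, 1 in ileum with a minimum of 10 CPM, and 1 in jejunum with lane as a covariate. Whether the replicate numbers pair the libraries is not known. A replicate block called 1236 genes in liver, 268 in duodenum, 960 in jejunum, 580 in ileum, 3328 in WAT and 184 in muscle. With a replicate block the further enzymes called numbered 4 for jejunum, 2 for duodenum, 1 for ileum and 1 for muscle, and 1 of the 10 genes was called in muscle (Got1), while the call of none of the 10 genes changed in another tissue.

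Signs turned for uncalled log2 fold changes, and for no called one. Under median-ratio scaling, which moved the median of all genes in liver from 0.13 to 0.014, in duodenum from 0.12 to 0.034 and in WAT from 0.11 to 0.003, they were -0.078 for Cps1 and -0.058 for Asl in liver, -0.0225 for Cps1 and -0.076 for Got1 in duodenum, and -0.025 for Asl in WAT. With the block they were -0.11 for Cps1 and -0.019 for Got1 in duodenum and 0.0079 for Got1 in jejunum, and with lane 0.030 for Got1 in jejunum. Without single libraries the liver values ranged from -0.10 to 0.16 for Cps1, -0.10 to 0.28 for Asl, -0.28 to 0.026 for Arg1 and -0.38 to 0.0055 for Got1. The duodenum values ranged from -0.11 to 0.26 for Cps1, -0.0038 to 0.67 for Otc and -0.16 to 0.21 for Got1. The jejunum values ranged from -0.010 to 0.76 for Cps1, -0.079 to 0.29 for Otc and -0.12 to 0.040 for Got1, and the ileum values from -0.040 to 0.38 for Otc and from -0.0042 to 0.20 for Asl. Over all values of single genes, 878 kept their direction and side of the threshold, 122 lost a call, 3 gained one and 32 changed sign. Lane could not be fitted in ileum and was not run in duodenum, which had 1 lane. CPM rounded to 0.1 and the unknown depth limit genes near 1 CPM, such as Tat in jejunum.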

Other observations

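Proline and glutamate breakdown in duodenum is described here after its values were seen, and none of these genes was called by limma. Of 4 tested genes of lysine and proline breakdown, 3 had an unadjusted p under 0.05, beside 18.8% of all duodenum genes. The median log2 fold change of the list was 0.67 beside 0.12 over all duodenum genes. Prodh, proline dehydrogenase, had a log2 fold change of 0.89 (adjusted p = 0.138), and Aldh4a1, which takes its product on to glutamate, of 1.06 (adjusted p = 0.155). Glud1, glutamate dehydrogenase, which releases glutamate nitrogen as ammonia, averaged 228.5 CPM in RYGB and 62.9 CPM in sham duodenum. Its values ran from 139.7 to 288.9 CPM in RYGB and from 20.3 to 148.1 CPM in sham, so the groups overlapped. The log2 fold change was 2.17 (SE 0.59, adjusted p = 0.150 by limma). In jejunum Glud1 averaged 100.3 CPM in RYGB and 191.9 CPM in sham. The difference between the segments was not tested.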
